A study of Mus musculus with 9 samples.

Results

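Metabotropic glutamate receptors are G protein-coupled receptors that sense synaptic glutamate and act more slowly than the ion channels it opens. The 6 receptor genes described here are Grm2, Grm3, Grm4, Grm5, Grm7 and Grm8, taken by gene symbol from a table of 57010 genes, and each symbol matched 1 row. All 6 passed the filter on low counts, which 17967 genes passed. Other receptor genes of the family are not analysed here.

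The study sequenced hippocampal RNA from C57BL/6J mice, giving 9 libraries. The Sham group (n = 3) had the L5 spinal nerve exposed without ligation and then received solvent. The SNL group (n = 3) had that nerve ligated, a surgical model of neuropathic pain, and then received solvent. The CBD group (n = 3) had the same ligation followed by intraperitoneal cannabidiol, a non-intoxicating constituent of cannabis, at 5 mg/kg for 15 days. The ligated mice without cannabidiol are therefore the reference for the drug, and no group received cannabidiol without ligation. No label gives the age of the mice or ties each library to its own animal. The p-values therefore describe the spread between these libraries only, which may be technical.

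The family falls into 3 groups by sequence and signalling. Group I, here Grm5, couples to Gq and phospholipase C, sits mainly on the postsynaptic side around the synapse, and is tied to NMDA receptors through Homer and Shank scaffolds. Group II, Grm2 and Grm3, and group III, Grm4, Grm7 and Grm8, couple to Gi/o and lower cyclic AMP, and many of these receptors act on axon terminals, where they restrain transmitter release. Grm2 is prominent in dentate granule cells and their mossy fibres, Grm3 is found in neurons and in astrocytes, and Grm7 lies in the active zone of many terminals.

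Libraries held from 16972620 to 20470546 expected counts in total. Levels are given as CPM, the gene's counts scaled to a common library total, with the library sizes corrected by TMM (trimmed mean of M-values). The libraries SNL 1, SNL 2 and CBD 1 held 200.4, 43.9 and 145.7 CPM of Pmch, a hypothalamic neuropeptide gene, against at most 0.797 CPM in the other 6. The hippocampal markers of dentate, CA1 and CA3 neurons were detected, with a count above 0, in every library, 27 of 27. Detection at this threshold does not measure how much RNA came from other tissue. The counts of a receptor gene ranged from 60 reads for Grm8 in Sham 2 to 3753 for Grm5 in CBD 3. At 60 reads the counting error is 12.9% of the value. It is 5.57% or less at the lowest count of any of the other 5 genes.

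Grm5, the group I receptor, had the highest level of the 6 per length of transcript and Grm8 had the lowest. The level per kilobase of the longest annotated transcript had a median of 19.8 CPM per kilobase over the 9 libraries for Grm5 (12.8 to 27.0). The medians were 11.5 CPM per kilobase for Grm3 (9.49 to 12.1), 11.0 for Grm7 (9.49 to 11.6), 9.22 for Grm2 (5.52 to 16.4), 7.53 for Grm4 (3.53 to 14.8) and 1.86 for Grm8 (0.632 to 2.18). Grm5 lay above Grm3 and Grm4 lay above Grm8 in 9 of 9 libraries, with ranges that did not overlap. Between these, Grm3 and Grm7, Grm7 and Grm2, and Grm2 and Grm4 did not differ beyond their spread, the first of each pair being above the second in 6 of 9 libraries. The length used decides the middle of the order. With the mean length of the annotated transcripts in place of the longest, Grm3, which has 1 annotated transcript, kept its median of 11.5 and stood below Grm7 at 18.8, Grm2 at 18.4 and Grm4 at 12.5 CPM per kilobase.

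**Figure D1:**
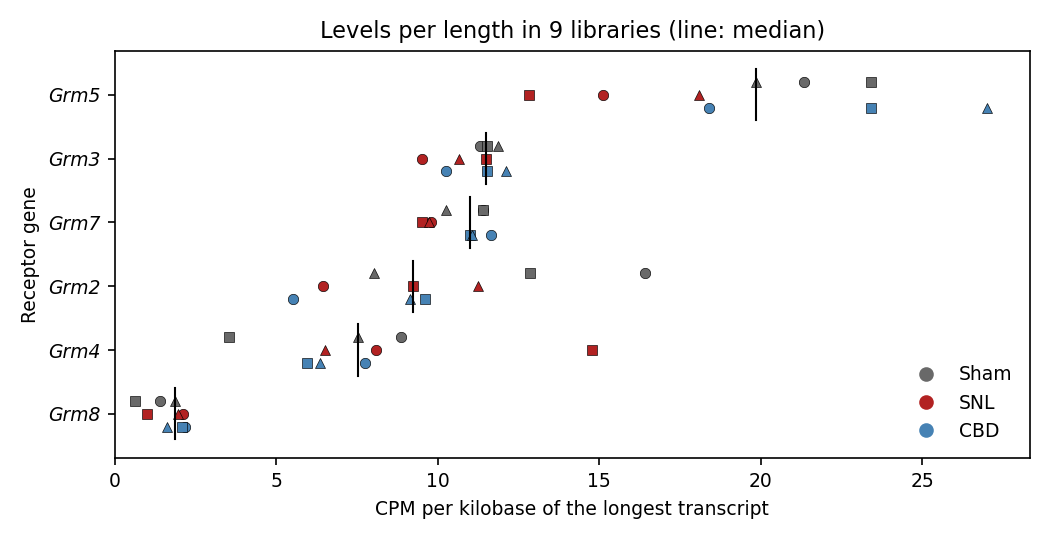
Level per kilobase of the longest transcript (horizontal axis, CPM per kilobase) of the 6 receptor genes, 1 point per library, coloured by group and shaped by replicate number, with a line at the median of the 9 libraries. Grm5 stands apart at the high end and Grm8 at the low end, while Grm3, Grm7, Grm2 and Grm4 overlap.

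The genes differed in how far they spread between libraries. Grm3 and Grm7 were the steadiest, with a highest library 1.27 and 1.23 times the lowest and coefficients of variation of 7.52% and 7.77% over the 9 libraries. Only 5.58% and 6.26% of the tested genes had a smaller coefficient. Grm5 varied by 22.1%, Grm8 by 32.7%, Grm2 by 33.9% and Grm4 by 39.8%. Grm4 had the widest range, 4.18-fold between Sham 2 and SNL 2, and 87.0% of the tested genes varied less. The makeup of the receptor RNA differed between libraries as well. As a share of the summed level per kilobase of the 6 genes, Grm5 took 21.8% in SNL 2 and 40.2% in CBD 3. The 3 group III genes together took 24.6% in Sham 2 and 43.0% in SNL 2, and the pair of group II genes took 28.3% in CBD 1 and 39.2% in Sham 1. These shares depend on the length used, here that of the longest transcript. For Grm5 it is 8047 bases, against a mean of 2950 over its annotated transcripts.

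The comparison of SNL with Sham asks how nerve ligation altered hippocampal RNA. No receptor gene passed the test in it. Grm5 and Grm7 were lower in every SNL library than in every Sham library, Grm5 at 0.71 times and Grm7 at 0.88 times the Sham level. Grm2 and Grm3 also had lower means in SNL, and Grm4 and Grm8 had higher ones, with overlapping groups. By edgeR's quasi-likelihood test with Benjamini-Hochberg adjustment, 0 of 6 receptor genes and 0 of 17967 genes (0%) passed at 0.05. Before adjustment, 1 of 6, Grm5, had p under 0.05, as did 13.8% of all genes. The DESeq2 Wald test called 0 of 6, and 2.34% of the genes it gave an adjusted p. The groups did not overlap for 2 of 6, and for 17.7% of all genes. The median log2 fold change was -0.16 over the 6 genes and 0.01 over all tested genes.

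The comparison of CBD with SNL asks how cannabidiol altered it once the nerve was ligated. Grm5 and Grm7 were higher in every CBD library than in every SNL library, Grm5 at 1.50 times and Grm7 at 1.16 times the SNL level, and again neither passed the test. Grm4 had a lower mean in CBD, at 0.68 times the SNL level, with overlapping groups. The edgeR test called 0 of 6 and 0% of all genes. Before adjustment, 2 of 6, Grm5 and Grm7, had p under 0.05, as did 13.7% of all genes, and DESeq2 called 0 of 6 and 1.21% of the genes it gave an adjusted p. The groups did not overlap for 2 of 6 and for 19.3% of all genes. This comparison and the first share the SNL libraries, so a low SNL value moves them in opposite directions.

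In the comparison of CBD with Sham, ligated mice given cannabidiol beside mice without ligation, the edgeR test called 0 of 6 receptor genes and 0% of all genes, and DESeq2 called 0 of 6 and 2.99%. Before adjustment 0 of 6 had p under 0.05, as did 16.3% of all genes. The groups overlapped for each of the 6, and did not for 21.7% of all genes. The largest differences in means were those of Grm2, at 0.65 times the Sham level, and of Grm8, at 1.50 times. In this comparison fold changes across all tested genes followed transcript GC content (Spearman rho -0.56) and, less closely, length (0.16). These are values across genes, which are not independent replicates. The GC content is 56.9% for Grm2 and 41.9% for Grm8.

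**Figure D2:**
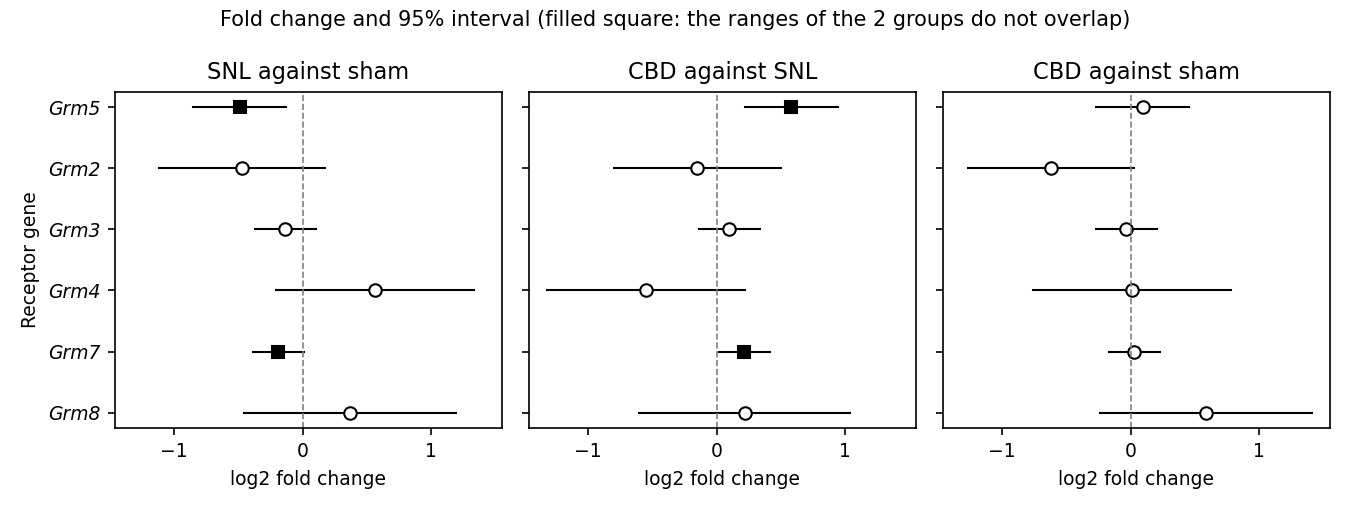
Log2 fold change (horizontal axis) of each receptor gene in the 3 comparisons, with its 95% interval as a bar, and a filled square where the ranges of both groups do not overlap. Grm5 and Grm7 have filled squares to the left of 0 in SNL against Sham and to the right of 0 in CBD against SNL, and the intervals of Grm2, Grm4 and Grm8 are the widest.

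Grm5 (ENSMUSG00000049583) encodes mGluR5, the main group I receptor of hippocampal pyramidal cells, required for several forms of synaptic plasticity. Its level was 172, 188 and 159.6 CPM in Sham 1, 2 and 3, then 122, 103 and 145 CPM in SNL 1, 2 and 3, and 148, 188 and 217 CPM in CBD 1, 2 and 3. The highest SNL library was below the lowest Sham library and, by a narrow margin, below the lowest CBD library, and Sham and CBD overlapped. The means were 173 CPM ± 14.4 in Sham, 123 CPM ± 21.2 in SNL and 185 CPM ± 34.8 in CBD (SD, n = 3 each). The log2 fold change was -0.49 (SE 0.16, edgeR adjusted p 0.263) in SNL against Sham, with a 95% interval from -0.85 to -0.13. It was 0.58 (SE 0.16, edgeR adjusted p 0.306) in CBD against SNL, with an interval from 0.22 to 0.94, and 0.09 (interval -0.27 to 0.45) in CBD against Sham. DESeq2 gave adjusted p of 0.119, 0.0611 and 0.786 in that order.

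The Grm5 values stood beside several other differences between the libraries. In CBD against SNL, fold changes across all tested genes followed transcript GC content (Spearman rho -0.44) and length (0.36), across genes, which are not independent replicates. Grm5 has a long transcript of 8047 bases with 42.5% GC. With offsets that remove both trends the Grm5 difference in CBD against SNL was 0.31 (SE 0.16, edgeR adjusted p 0.717), against -0.45 in SNL against Sham. Without the 3 libraries with Pmch, where SNL 3 is the only SNL library and is assumed to vary like the other groups, the log2 fold change was -0.24 in SNL against Sham and 0.48 in CBD against SNL. Marker sums of dentate and CA1 neurons also differed. The 10 dentate granule cell markers summed to 451 to 739 CPM in Sham, 305 to 417 in SNL and 335 to 557 in CBD, and the 8 CA1 markers to 426 to 679, 294 to 489 and 310.3 to 518 CPM. The thalamus and habenula markers went the other way, at 466 to 649.6, 735 to 1727 and 681 to 935 CPM. By gene, so did the myelin markers, 10 of 10 higher in SNL against Sham and 10 of 10 lower in CBD against SNL. The 10 endothelial and pericyte markers did the same. The 10 interneuron markers summed to 855 to 1049 CPM in Sham, 968 to 1162 in SNL and 841 to 1339 in CBD. For the 9 CA3 and mossy cell markers the sums were 348 to 371, 336 to 403 and 380 to 409.7 CPM. Counted by gene, 6 of these 9 were lower in SNL against Sham (median log2 fold change -0.19). In CBD against SNL 7 of the 9 were higher (median 0.31). No marker of any of these lists was at 0 in any library, and the part of the lists in the Grm5 values was not tested. In bulk tissue, fewer cells of a type, less RNA per cell and a larger share of RNA from other tissue cannot be told apart.

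Grm7 (ENSMUSG00000056755) encodes mGluR7, a presynaptic receptor of low affinity for glutamate that is engaged when release is strong. It stood at 48.0, 48.0 and 43.2 CPM in Sham, at 41.3, 40.0 and 40.9 CPM in SNL and at 49.0, 46.3 and 46.5 CPM in CBD, for replicates 1, 2 and 3. The SNL libraries lay below all 6 others, within 1.03-fold of each other. The means were 46.4 CPM ± 2.77, 40.7 CPM ± 0.67 and 47.3 CPM ± 1.49. On the log2 scale the difference was -0.19 (SE 0.09, edgeR adjusted p 0.380) in SNL against Sham, 0.22 (SE 0.09, edgeR adjusted p 0.339) in CBD against SNL and 0.03 in CBD against Sham. With offsets for GC and length, the second of these was 0.13 (edgeR adjusted p 0.749). Gm20387, annotated on the opposite strand across exons of Grm7, had 183.5 counts in all libraries together against 7580 for Grm7, and the sources used here do not say whether the counting used strand.

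**Figure D3:**
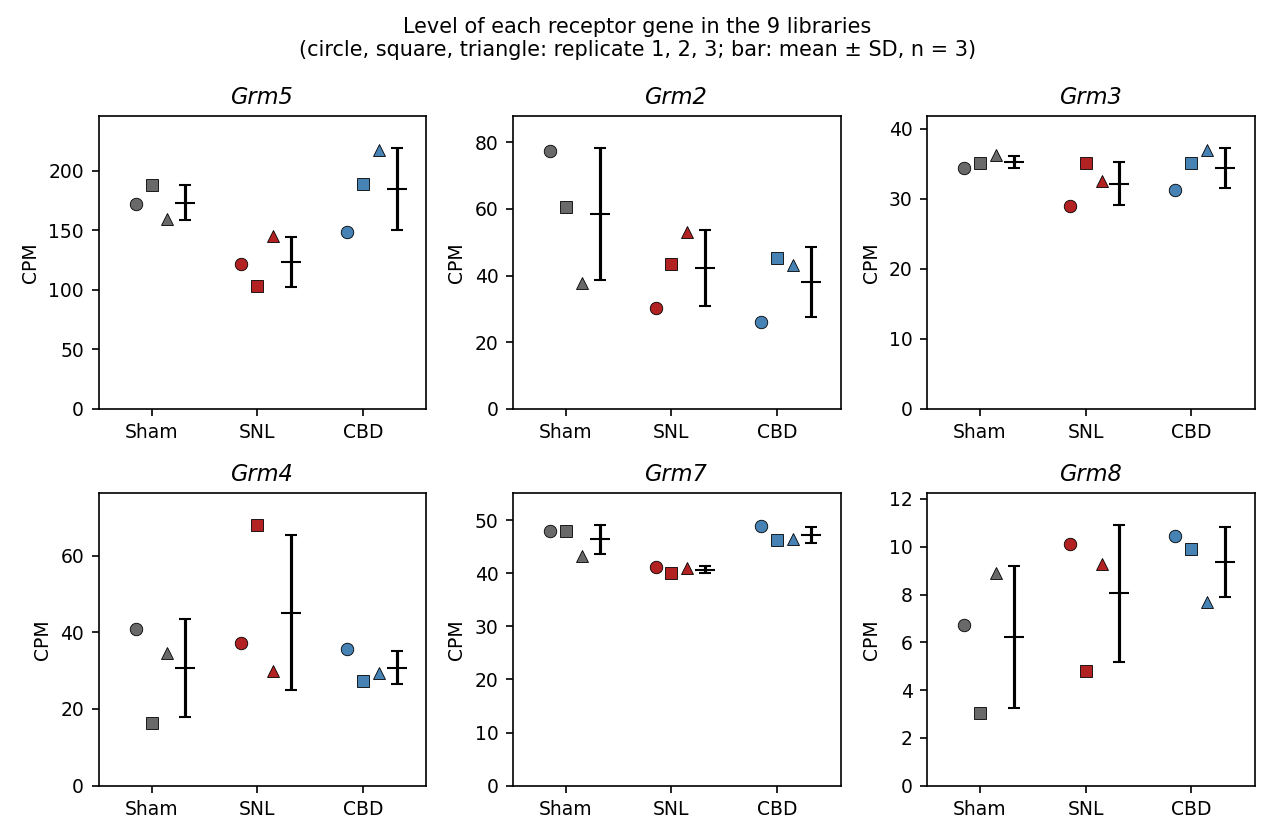
CPM (vertical axis, from 0) of each receptor gene in Sham, SNL and CBD, 1 point per library with its shape giving the replicate number, and mean ± SD (n = 3) beside the points. For Grm5 and Grm7 the 3 SNL points lie under all points of the other groups, and for Grm4 the SNL mean is set apart by SNL 2 at 68.0 CPM.

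Grm2 (ENSMUSG00000023192) encodes mGluR2, a presynaptic autoreceptor of group II. It stood at 77.4, 60.6 and 37.8 CPM in Sham 1, 2 and 3, at 30.3, 43.4 and 53.0 CPM in SNL and at 26.0, 45.3 and 43.0 CPM in CBD. Sham 1 and Sham 2 were the highest of the 9 libraries, while Sham 3 lay among the ligated ones, so the groups overlapped in each comparison. The means were 58.6 CPM ± 19.9, 42.2 CPM ± 11.4 and 38.1 CPM ± 10.5. On the log2 scale the difference was -0.47 (SE 0.29, edgeR adjusted p 0.494) in SNL against Sham, -0.15 (SE 0.29, edgeR adjusted p 0.848) in CBD against SNL and -0.62 (SE 0.29, edgeR adjusted p 0.321) in CBD against Sham. Without the libraries with Pmch the difference between SNL and Sham was -0.14 and that between CBD and Sham -0.40. CBD 1 and SNL 1, the lowest in Grm2, were also the lowest in the summed CA1 markers, at 310.3 and 294 CPM, and the highest in the 13 hypothalamic markers, at 416 and 319.8 CPM. Sham 1, the highest in Grm2, had the highest CA1 sum, 679 CPM. The summed dentate markers were also lowest in SNL 1 and CBD 1, at 305 and 335 CPM, but were highest in Sham 2, at 739 CPM, against 579 CPM in Sham 1. These pairings were chosen after the values were seen, and their part in the Grm2 values was not tested.

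Grm3 (ENSMUSG00000003974) encodes mGluR3, the other group II receptor, which also responds to the peptide transmitter N-acetylaspartylglutamate (NAAG). It stood at 34.4, 35.1 and 36.2 CPM in Sham, at 28.9, 35.0 and 32.5 CPM in SNL, then at 31.3, 35.1 and 36.9 CPM in CBD. SNL 1 was the lowest of the 9 and CBD 3 the highest, and the groups overlapped in each comparison. The log2 fold change was -0.13 (interval -0.37 to 0.11) in SNL against Sham, 0.10 (-0.14 to 0.34) in CBD against SNL and -0.03 (-0.27 to 0.20) in CBD against Sham. Since Grm3 was steady, the ratio of Grm2 to Grm3 per kilobase followed Grm2, from 0.537 in CBD 1 to 1.45 in Sham 1. The summed level of the 12 astrocyte markers was 4755 to 5341 CPM in Sham, 4184 to 4659.5 in SNL and 4575 to 5354 in CBD, with no marker at 0. Slc1a2 alone, the most abundant of them, held 2227 to 2738 CPM in Sham, 1732 to 2115 in SNL and 1949 to 2992 in CBD. By gene, 8 of the 12 markers were higher in mean in SNL than in Sham (median log2 fold change 0.03), so the list had no common direction, and its part in the Grm3 values was not tested.

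Grm4 (ENSMUSG00000063239) encodes mGluR4, a group III receptor best known from terminals of cerebellum, basal ganglia and thalamus. It stood at 40.8, 16.3 and 34.7 CPM in Sham 1, 2 and 3, at 37.2, 68.0 and 30.0 CPM in SNL and at 35.6, 27.4 and 29.3 CPM in CBD. SNL 2 was far above and Sham 2 far below the other 7 libraries, which lay between 27.4 and 40.8 CPM. On the log2 scale Grm4 differed by 0.56 (SE 0.35, edgeR adjusted p 0.495) in SNL against Sham and by -0.55 (SE 0.35, edgeR adjusted p 0.507) in CBD against SNL. Without SNL 2 these values were 0.14 and -0.13, and without Sham 2 the first was 0.26. Without the libraries with Pmch the difference between SNL and Sham was -0.018, the opposite direction. In CBD against Sham the value was 0.01 with all libraries. SNL 2 had the highest and Sham 2 the lowest sum of the 14 thalamus and habenula markers, at 1727 and 466 CPM. The groups differed in this sum as well, with 466 to 649.6 CPM in Sham, 735 to 1727 in SNL and 681 to 935 in CBD, so every ligated library lay above every Sham library. The same 2 libraries were the extremes of the 10 choroid plexus markers, at 2268 and 147 CPM. The libraries between these extremes did not keep the order. CBD 3 had a thalamus and habenula sum of 935 CPM with Grm4 at 29.3 CPM, and Sham 1 a sum of 602 CPM with Grm4 at 40.8 CPM. CBD 2 had a choroid plexus sum of 1934 CPM with Grm4 at 27.4 CPM. No marker of these lists was at 0 in any library. The pairings were chosen after the values were seen, and the part of the lists in the Grm4 values was not tested.

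**Figure D4:**
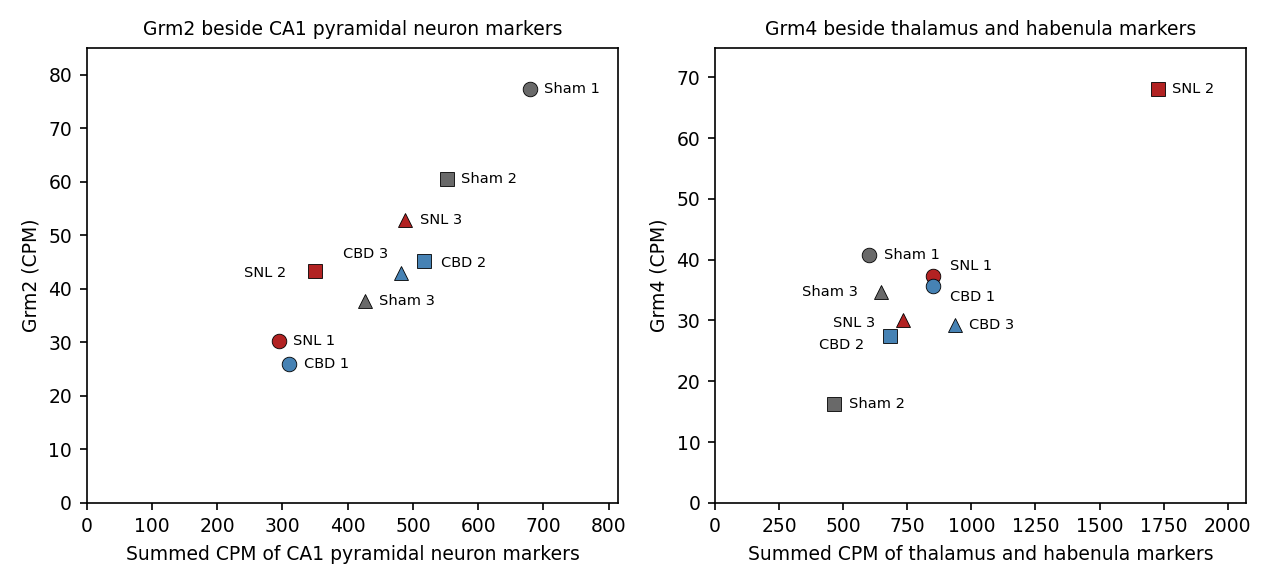
CPM of Grm2 (left, vertical axis) against the summed CPM of 8 CA1 pyramidal neuron markers, and CPM of Grm4 (right) against the summed CPM of 14 thalamus and habenula markers, 1 labelled point per library. SNL 1 and CBD 1 are lowest on both axes of the left plot and Sham 1 highest, and on the right SNL 2 is highest and Sham 2 lowest on both axes.

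Grm8 (ENSMUSG00000024211) encodes mGluR8, a group III receptor with high affinity for glutamate, found on terminals of the lateral perforant path. It stood at 6.73, 3.03 and 8.92 CPM in Sham 1, 2 and 3, at 10.1, 4.79 and 9.30 CPM in SNL and at 10.4, 9.91 and 7.70 CPM in CBD. Sham 2 and SNL 2, at 60 and 91 reads, were the lowest, and the groups overlapped in each comparison. The log2 fold change was 0.37 (interval -0.46 to 1.20) in SNL against Sham, 0.22 (-0.60 to 1.04) in CBD against SNL and 0.59 (-0.24 to 1.41) in CBD against Sham. Without SNL 2 the second turned to -0.05 and the first was 0.64. Without Sham 2 the first was 0.04 and the third 0.26, and without Sham 3 they were 0.73 and 0.94. Sham 2 was the lowest library for Grm8 and for Grm4, while SNL 2 was low for Grm8 and the highest for Grm4.

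The genes whose pattern over the 9 libraries was most like that of each receptor were found among 13892 tested genes. Those compared averaged 1 CPM or more and had a symbol other than a clone, Riken, pseudogene or predicted name. Likeness was the root mean square difference of log2 CPM after each gene was centred on its own mean. For Grm5 the nearest genes were Creg2 (0.07), the neurotrophin receptor gene Ntrk3 (0.08) and Dlg2 (0.08), which encodes the postsynaptic scaffold PSD-93. The spread of Grm5 itself was 0.32. Creg2 stood at 118, 137 and 120.0 CPM in Sham, 88.2, 78.7 and 102 in SNL and 99.6, 125 and 147 in CBD. For Grm2 they were Igfbp4 (0.11), Fbxl16 (0.14) and the Nogo receptor gene Rtn4r (0.14), against a spread of 0.45. The nearest to Grm4 were Col27a1, Plekha7 and the potassium channel gene Kcnj12 (0.15, 0.15 and 0.16, spread 0.51). For Grm8, which had the widest spread on this scale (0.55), the nearest were the long noncoding RNA Rmst, Prr16 and the G protein gene Gng4 (0.22 to 0.25). The steady genes had near neighbours at smaller distances, Smarcc1, Tmem245 and Sin3a for Grm7 (0.03 to 0.05, spread 0.11) and Cul4a, Mgat3 and Map3k13 for Grm3 (0.05 to 0.06, spread 0.11). No receptor gene was among the 3 nearest of another. Among themselves the closest were Grm3 and Grm7, at 0.13, and then Grm5 and Grm7, at 0.25, with 1149 other genes closer to Grm5 than Grm7 was.

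The signalling partners of these receptors were followed in 5 lists with 67 genes, all of which were tested, and by edgeR no gene of any list had an adjusted p under 0.05 in any comparison. The scaffold and adhesion list holds Homer and Shank scaffolds, the mGluR7-binding protein Pick1, and Elfn1 and Elfn2, adhesion proteins that bind group III receptors across the synapse. In SNL against Sham, 14 of its 15 genes had negative fold changes, with a median of -0.42 on the log2 scale, beside 48.4% of all tested genes and a median of 0.01. With p under 0.05 before adjustment, 6 of 15 were lower and 0 higher, beside 7.96% and 5.83% of all genes. DESeq2 called 4 of 15, Elfn2, Homer3, Tamalin and Ncdn, all lower, beside 2.34% of the genes it gave an adjusted p. Elfn2 stood at 265, 251 and 203 CPM in Sham, 147, 168 and 179 in SNL and 164, 168 and 169 in CBD, so every ligated library was below every Sham library. Its log2 fold change was -0.54 (SE 0.12, edgeR adjusted p 0.210) in SNL against Sham and -0.52 (SE 0.12, edgeR adjusted p 0.213) in CBD against Sham. Homer3, a scaffold that binds group I receptors, differed by -1.13 (SE 0.26) and -1.21 (SE 0.26) on the log2 scale in the same comparisons. Tamalin, a scaffold for group I and II receptors, was at -0.88 and -0.85, and Ncdn, which encodes the mGluR5-binding protein norbin, at -0.72 and -0.78. Against SNL, the CBD group had 8 of 15 higher and 7 lower, with a median of 0.02, beside 49.9% of all tested genes above 0 and a median of -0.001. Homer1 stood at 64.6, 70.9 and 54.2 CPM in Sham, 44.7, 45.0 and 51.9 in SNL and 45.9, 59.9 and 79.6 in CBD, and Pick1 had a log2 fold change of -0.26 (SE 0.11, edgeR adjusted p 0.348) in CBD against SNL. In CBD against Sham, 13 of 15 genes were below 0 with a median of -0.27, beside 49.9% of all genes, 6 of 15 had p under 0.05 before adjustment, beside 16.3%, and DESeq2 again called Elfn2, Homer3, Tamalin and Ncdn, beside 2.99%. Marker lists also differed between the groups. Between SNL and Sham, 9 of 10 dentate markers (median -0.91) and 7 of 8 CA1 markers (median -0.44) had negative log2 fold changes (SNL against Sham), while 14 of 14 thalamus and habenula markers (median 1.02) and 10 of 10 endothelial and pericyte markers (median 0.51) had positive ones. In CBD against Sham, 8 of 10 dentate and 5 of 8 CA1 markers were below 0, and 14 of 14 thalamus and habenula markers were above 0 (median 0.50). In CBD against SNL, 9 of 10 dentate (median 0.33) and 6 of 8 CA1 markers (median 0.22) were above 0. There 13 of 14 thalamus and habenula markers (median -0.37) and 10 of 10 endothelial and pericyte markers were below 0. The scaffold list had a median of 0.02 in that comparison, with 8 of 15 genes above 0 and 7 below, as given above. The part of the marker lists in the scaffold values was not tested.

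The Gq list holds the G protein, phospholipase C, protein kinase C and channel genes that act after group I receptors. In SNL against Sham, 14 of its 16 genes had negative fold changes (median -0.39). With p under 0.05 before adjustment, 8 of 16 were lower and 2 higher, beside 7.96% and 5.83% of all genes, and DESeq2 called 1, Prkca, beside 2.34%. The 2 higher ones, of which Plcb4 is named after its values were seen, were the phospholipase gene Plcb4 at 1.02 (SE 0.35) and the regulator Rgs2 at 0.43 (SE 0.16). The groups overlapped for both. Plcb4 was at 170 CPM in SNL 2, but at 65.8 CPM in SNL 3 against 83.5 CPM in Sham 3. Rgs2 was at 30.7 CPM in SNL 2 and 31.7 CPM in Sham 3. Prkca, a protein kinase C gene, stood at 232, 311 and 188 CPM in Sham, 110.4, 86.0 and 154 in SNL and 124, 229.8 and 267 in CBD. The SNL libraries were all below the Sham libraries, and CBD 1 lay among the SNL values. Its log2 fold change was -1.06 (SE 0.30, edgeR adjusted p 0.232). The phospholipase gene Plcb1 was at -0.66 (SE 0.20), the channel gene Trpc5 at -0.62 (SE 0.20) and Gnaq, the Gq alpha subunit, at -0.37 (SE 0.12), and none of these 3 passed by either tool. In CBD against SNL, 11 of 16 were above 0 (median 0.13), with 4 higher and 0 lower at an unadjusted p under 0.05, beside 6.50% and 7.20% of all genes. DESeq2 called Trpc5, beside 1.21% of the genes it gave an adjusted p. Trpc5 stood at 10.5, 12.7 and 10.2 CPM in Sham, 6.30, 6.05 and 9.40 in SNL and 13.2, 10.9 and 13.3 in CBD. Its log2 fold change in CBD against SNL was 0.78 (SE 0.20, edgeR adjusted p 0.306). In CBD against Sham the median was -0.08, with 5 above and 11 below 0, and 4 of 16 had p under 0.05 before adjustment, beside 16.3% of all genes. In SNL against Sham the dentate and CA1 markers were mostly lower and the thalamic and endothelial ones higher, as given above. Beside the Gq median of -0.08 in CBD against Sham, the dentate and CA1 markers had medians of -0.54 and -0.22. The thalamic and endothelial markers had medians of 0.50 and 0.23 in that comparison. The part of these markers in the Gq values was not tested.

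**Figure D5:**
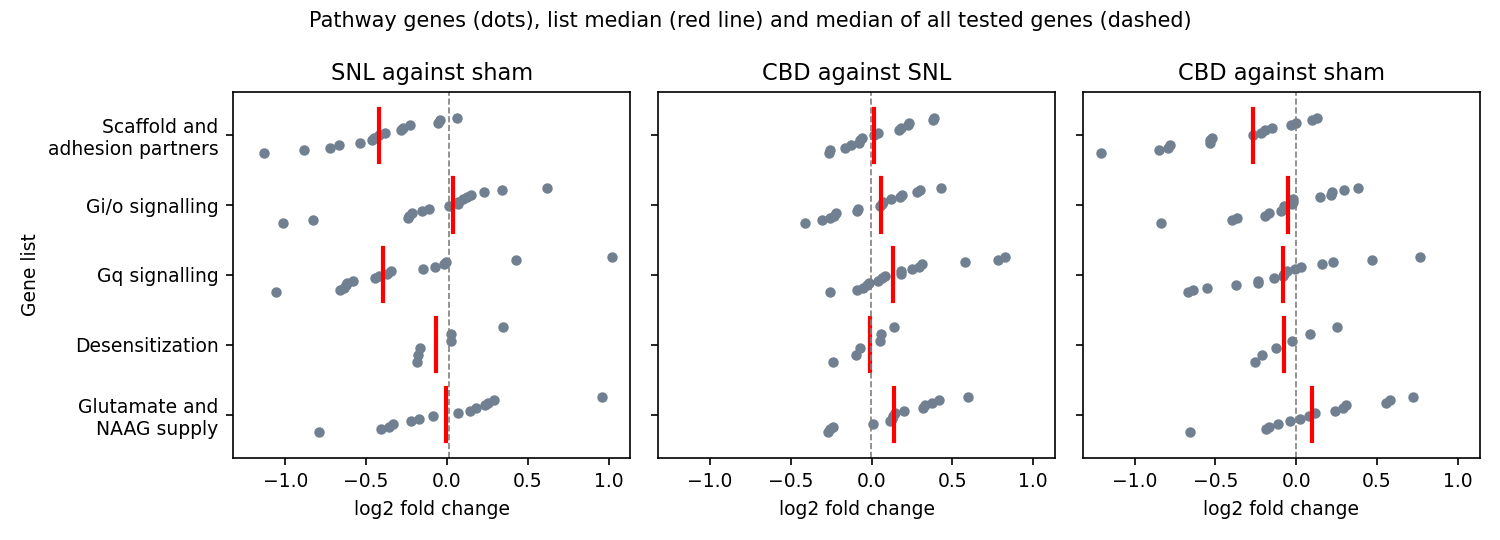
Log2 fold change (horizontal axis) of each gene of the 5 pathway lists, 1 dot per gene, in the 3 comparisons, with the list median in red and the median of all tested genes dashed. In SNL against Sham the medians of the scaffold and Gq lists lie at -0.42 and -0.39, while those of the other 3 lists lie between -0.07 and 0.04.

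The remaining lists had medians nearer to that of all genes in SNL against Sham, which did not hold for every list in the other comparisons. The Gi/o list of 16 genes, the G proteins, potassium channels and RGS regulators downstream of groups II and III, had medians of 0.04 in SNL against Sham, 0.06 in CBD against SNL and -0.05 in CBD against Sham. Before adjustment 3, 3 and 2 of these genes had p under 0.05, beside 13.8%, 13.7% and 16.3% of all genes, shares close to those of the list, and DESeq2 called 0 in each. Rgs4, which speeds the turning off of Gi/o and Gq signals, stood at 140.0, 125 and 130.3 CPM in Sham, 167, 273 and 166 in SNL and 171, 157 and 187 in CBD. Its log2 fold change was 0.62 (SE 0.18, edgeR adjusted p 0.234) in SNL against Sham and 0.38 (SE 0.18, edgeR adjusted p 0.321) in CBD against Sham. Every SNL and every CBD library was above every Sham library. The groups did not overlap for 17.7% and 21.7% of all genes in these 2 comparisons. The other 2 genes with an unadjusted p under 0.05 in SNL against Sham were lower in mean, the potassium channel gene Kcnj6 at -0.83 (SE 0.36) and Rgs14 at -1.01 (SE 0.45). Gnai1, a Gi alpha subunit, had a log2 fold change of 0.28 (SE 0.10, edgeR adjusted p 0.312) in CBD against SNL. The 6 genes of receptor desensitization, kinases and arrestins, had medians of -0.07, -0.01 and -0.07 in the 3 comparisons, with 0, 0 and 1 at p under 0.05 before adjustment. The 14 genes of glutamate and NAAG supply and clearance had medians of -0.01, 0.14 and 0.10, with 2, 4 and 2 at p under 0.05 before adjustment, beside the same shares of all genes. Slc7a11, the cystine-glutamate exchanger of astrocytes that supplies glutamate outside the synapse, stood at 41.4, 40.5 and 42.4 CPM in Sham, 45.4, 57.9 and 42.9 in SNL and 66.8, 54.8 and 60.8 in CBD. It was higher in every CBD library than in every Sham library, by 0.55 on the log2 scale (SE 0.13, edgeR adjusted p 0.213), and DESeq2 called it (adjusted p 0.0201). The astrocyte glutamate transporter genes Slc1a2 and Slc1a3 had log2 fold changes of -0.33 (SE 0.17) and -0.41 (SE 0.14) in SNL against Sham and 0.42 (SE 0.17) and 0.37 (SE 0.14) in CBD against SNL, none of which passed by either tool. The vesicular glutamate transporter genes had larger differences in SNL against Sham and in opposite directions, Slc17a6, typical of thalamic neurons, at 0.96 (SE 0.38, edgeR adjusted p 0.308) and Slc17a7, typical of cortical and hippocampal pyramidal neurons, at -0.79 (SE 0.38, edgeR adjusted p 0.386). Slc17a6 stood at 67.8, 37.7 and 131 CPM in Sham, 178, 181 and 101 in SNL and 151, 117 and 122 in CBD, with Sham 3 above SNL 3. Slc17a7 stood at 1356, 1321 and 692 CPM in Sham, 476, 502 and 968 in SNL and 388, 847 and 903 in CBD, with overlapping groups. The marker sums of thalamus and of CA1 differed in the same directions, and their part in these values was not tested.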

How the data were processed

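The authors deposited 1 table of expected counts, which RSEM estimates by sharing reads among transcripts. RSEM and GRCm39 are the tool and build of the submitters' processing notes. No source used here names the aligner, annotation or filters. Counts were rounded, genes were kept by filterByExpr (17967 of 57010) and libraries scaled by TMM. The test was edgeR's (4.0.16, R 4.3.3) quasi-likelihood F test with 1 factor for the 3 groups over 9 libraries and 6 residual degrees of freedom, adjusted by Benjamini-Hochberg over all genes tested. Standard errors come from the log2 fold change and its F statistic. DESeq2 1.42.0 was an alternative, as were other scaling and filters, offsets for transcript GC content and length (GENCODE M21 on GRCm38, 98.2% of tested genes), a replicate block and left-out libraries. The fit was tested on simulated data. GRCm38 differs from the build of the files, so no coordinates are given.

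The 6 members, the 5 pathway lists and the 12 marker lists were chosen with earlier results of these data known. The genes named were the 6 receptors, the 3 nearest in pattern to each and, from a pathway list, up to 4 with the smallest p in each comparison. Centred log2 CPM used a prior count of 2. Intervals are 95%. No 2 libraries of a group agreed within sampling noise (chi-square per gene of at least 6.44).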

Additional observations from a re-analysis of the deposited data

How the results depend on the processing

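Under each alternative 0 of the 6 receptor genes were called in each comparison. Of 324 recomputed log2 fold changes 17 reversed, and no main value among these had passed. In SNL against Sham, Grm4 turned to -0.018 without the libraries with Pmch. In CBD against SNL, leaving out 1 library gave -0.35 to 0.053 for Grm2, above 0 without SNL 3 or CBD 1, and -0.051 to 0.41 for Grm8, below 0 without SNL 2. Grm8 was at -0.078 without the libraries with Pmch. In CBD against Sham, Grm5 and Grm7 turned to -0.14 and -0.043 under offsets for GC and length, and to -0.15 and -0.043 when the replicate block was added to these. There, leaving out 1 library gave -0.088 to 0.027 for Grm3 (above 0 without CBD 1), -0.29 to 0.27 for Grm4 (below 0 without Sham 2 or CBD 1), -0.043 to 0.22 for Grm5 (below 0 without CBD 3) and -0.022 to 0.052 for Grm7 (below 0 without Sham 3 or CBD 1). Without the libraries with Pmch, Grm3 was at 0.039 and Grm4 at -0.10. The cause was not tested.

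Over all genes, edgeR called 0 in each comparison. In SNL against Sham, CBD against SNL and CBD against Sham these were 253, 1 and 56 without a filter on low counts, 363, 150 and 369 by DESeq2, and 1, 2 and 20 without the libraries with Pmch. With only the 6 libraries compared there was 1 in CBD against Sham. Leaving out 1 library gave 0 to 8, 0 to 2 and 0 to 17. With the mean transcript length the median level was 18.4 CPM per kilobase for Grm2, 12.5 for Grm4, 54.1 for Grm5, 18.8 for Grm7 and 3.30 for Grm8. Groups share replicate numbers in the labels, but same-numbered samples did not deviate together (correlations from -0.27 to 0.19 over 9 pairs, 2 above 0.1, and 0 of 9 samples correlated best with their own number). Under the replicate block 0 genes were called in each comparison, and Grm5 was at -0.50 in SNL against Sham and 0.58 in CBD against SNL.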

Other observations

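The other lists of cell markers also differed in level between the libraries. Each is given as its summed CPM, and by edgeR 0 genes of the 12 lists had an adjusted p under 0.05 in any comparison. The 10 endothelial and pericyte markers summed to 411 to 469 CPM in Sham, 547 to 709 in SNL and 500.3 to 574 in CBD, so both ligated groups lay above Sham. The 10 myelin markers summed to 9001 to 12170 CPM in Sham, 10836 to 15392 in SNL and 8564 to 10004 in CBD, and the 6 markers of oligodendrocyte precursors to 369 to 431, 365 to 515 and 330 to 404 CPM. SNL 2, the library with the most Grm4, had the highest sum of both. The 10 microglial markers summed to 392 to 478 CPM in Sham, 369 to 463 in SNL and 342 to 406 in CBD. The sum of the 9 markers of CA3 and mossy cells, whose directions by gene are given above, lay between 336 and 409.7 CPM in all libraries. That of the 10 interneuron markers lay between 841 CPM in CBD 3 and 1339 CPM in CBD 1. The hypothalamic list was the only one with genes at 0 (Agrp, Hcrt, Otp, Oxt and Sim1), at most 3 of 13 in a library. Kl and Calb2 stand in 2 lists each.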
